A study of Homo sapiens with 6 samples.

Results

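The enzymes that carry pyruvate into the mitochondrial tricarboxylic acid (TCA) cycle, and the enzymes of that cycle, were followed in RNA sequencing of human colorectal cancer cells after knockdown of the long non-coding RNA GLCC1. The 31 genes were taken by symbol from a fixed list of the pyruvate dehydrogenase complex, its kinases and phosphatases, the TCA cycle and the malic enzymes. All 31 symbols were found among the 56638 symbols of the count files, and all 31 passed the filter on low counts, which left 23074 genes for testing.

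The series compared cells transfected with siRNA against lncRNA-AF339830, which is GLCC1, with cells given a nonspecific siRNA, to ask which genes depend on this RNA. There were 3 libraries of each. Titles end in 1, 2 or 3, which is taken here as a replicate number, but it could be the number of an siRNA, in which case the 3 libraries of a group would not be replicates of 1 treatment. The genotype labels of all 3 GLCC1 siRNA libraries read siRNA1. The labels name the cells as SW480, a colorectal cancer line, whereas the study's methods name DLD-1, another such line, and which it was, was not tested. Groups were taken from the sample titles. The names of the libraries give the siRNAs the other way round, so that every direction given here would be reversed under those names. The study states in general that its experiments used independent biological replicates. Neither this nor the labels say which cultures these libraries came from, and the tests measure the spread between these libraries, which may be technical.

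The pyruvate dehydrogenase complex turns pyruvate, the end product of glycolysis, into the acetyl-CoA that enters the TCA cycle. Its kinases switch the complex off by phosphorylation, and its phosphatases switch it on again. Pyruvate that does not take this route is reduced to lactate, and pyruvate carboxylase and the malic enzymes link pyruvate with oxaloacetate and malate outside it.

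The control siRNA libraries held 15002165 to 19042516 read pairs on genes and the GLCC1 siRNA libraries 11948790 to 18390975, with replicate 2 the smallest. The 31 genes took 0.335% to 0.338% of the gene counts in the controls and 0.319% to 0.325% after GLCC1 siRNA. The share of gene counts from the mitochondrial genome lay between 4.74% and 4.99% in the controls and between 4.70% and 5.21% with GLCC1 siRNA. GLCC1 itself was not counted under its own name. Of 9 stretches of 40 bases cut from the first unbroken run of its sequence, 8 matched hg19 at chr13:99049549-99049868. This lies inside FARP1, where 1 annotated transcript of FARP1 has an exon. The stretches cover less than the length the study gives for GLCC1, and the remainder was not placed. FARP1, a gene known for cytoskeletal regulation, had 109, 110.0 and 113 CPM (counts scaled to library size with the TMM factors of edgeR) in the control libraries and 63.2, 65.6 and 65.4 with GLCC1 siRNA, which does not measure the lncRNA alone. All 10 colorectal epithelium markers examined had counts, while 4 of 6 fibroblast markers had none in any library. The summed level of the epithelial markers lay between 5681 and 6220 CPM in the controls and between 2279 and 2721 CPM with GLCC1 siRNA, mostly through the keratins KRT8, KRT18 and KRT19, and its part in the results below was not tested.

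Of the 31 genes, 4 rose and 10 fell after GLCC1 siRNA at an adjusted p under 0.05, and 17 did not pass. Each p is from the quasi-likelihood test of edgeR, fitted over all genes tested and adjusted by the method of Benjamini and Hochberg. These 14 genes are 45.2% of the list. Of all genes tested 31.6% passed, with 14.9% up and 16.7% down, and of the 10378 genes whose mean reached 10 CPM, a level that all members but PDK4 exceeded, 49.9% passed, with 20.1% up and 29.8% down. The list was therefore called about as often as all genes with at least 10 CPM. These were not matched to the members in level beyond that floor. Its median log2 fold change was -0.07, the same as in all genes with at least 10 CPM (-0.07), against 0.03 in all genes tested. The 3 libraries of each condition did not overlap in 17 members, 5 with all GLCC1 siRNA libraries above and 12 with all below, where 46.3% of all genes and 63.9% of those with at least 10 CPM did not overlap. A change of at least 2-fold that also passed was seen in 3 members, DLAT, IDH3B and PDK4, and in 5.53% of the genes with at least 10 CPM. With library totals in place of TMM factors, which moved the median of all genes to 0.15, 6 members rose and 6 fell.

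**Figure D1:**
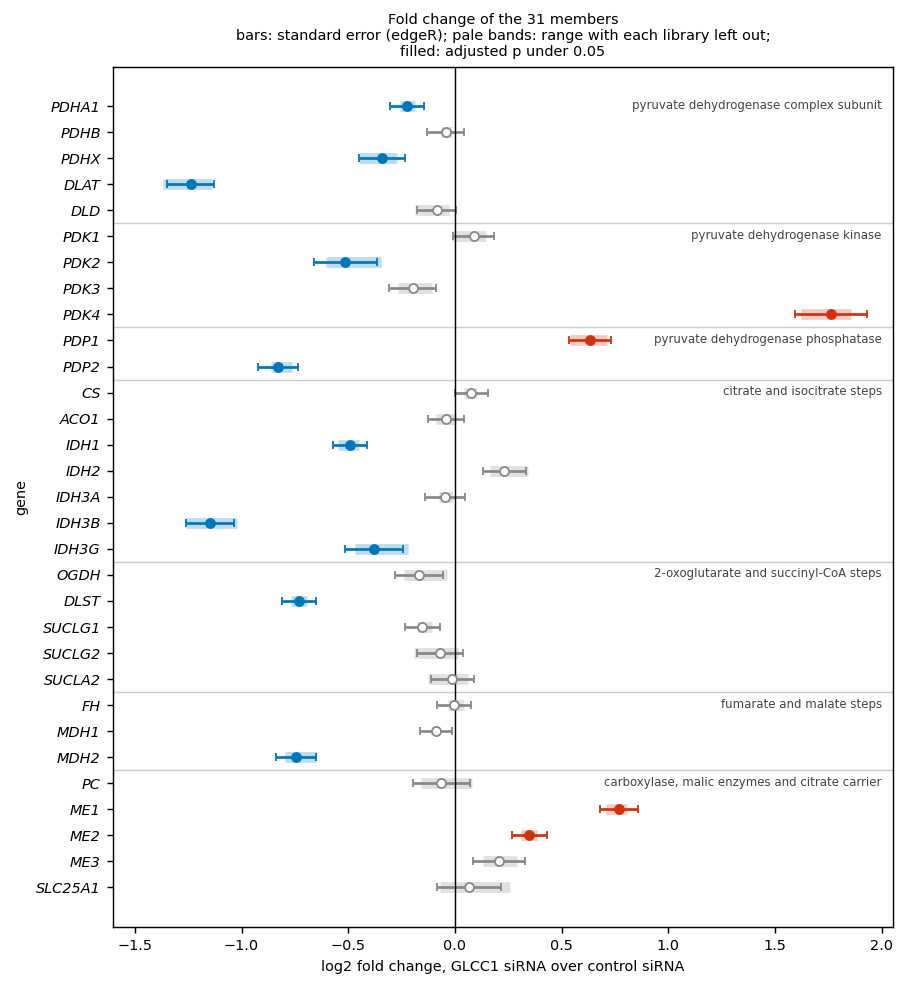
Log2 fold change of each of the 31 genes (x axis, GLCC1 siRNA over control siRNA) by gene (y axis), grouped by role, with the standard error from edgeR as bars and the range over 6 fits that each leave out 1 library as pale bands. Red points rose and blue points fell at an adjusted p under 0.05, open points did not pass, and DLAT, IDH3B and PDK4 lie farthest from 0.

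GLCC1 siRNA replicate 2, titled siRNA2, stood apart from the other libraries of its group. It was the highest of the 3 in 15 members and the lowest in 12, at a median distance of 0.29 on the log2 scale from the mean of replicates 1 and 3, which differed from each other by a median of 0.05. Without it, 7 members rose and 14 fell, while the number that passed among all genes tested went from 7293 to 9920. The 7 members added were IDH2, ME3 and SLC25A1, which rose, and DLD, PDK3, SUCLG1 and SUCLG2, which fell. In the 13 alternative fits, 10 of the 14 called members passed every time (DLAT, IDH3B, PDP2, MDH2, DLST and IDH1, which fell, and PDK4, PDP1, ME1 and ME2, which rose), while PDHA1, PDHX, PDK2 and IDH3G did not.

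**Figure D2:**
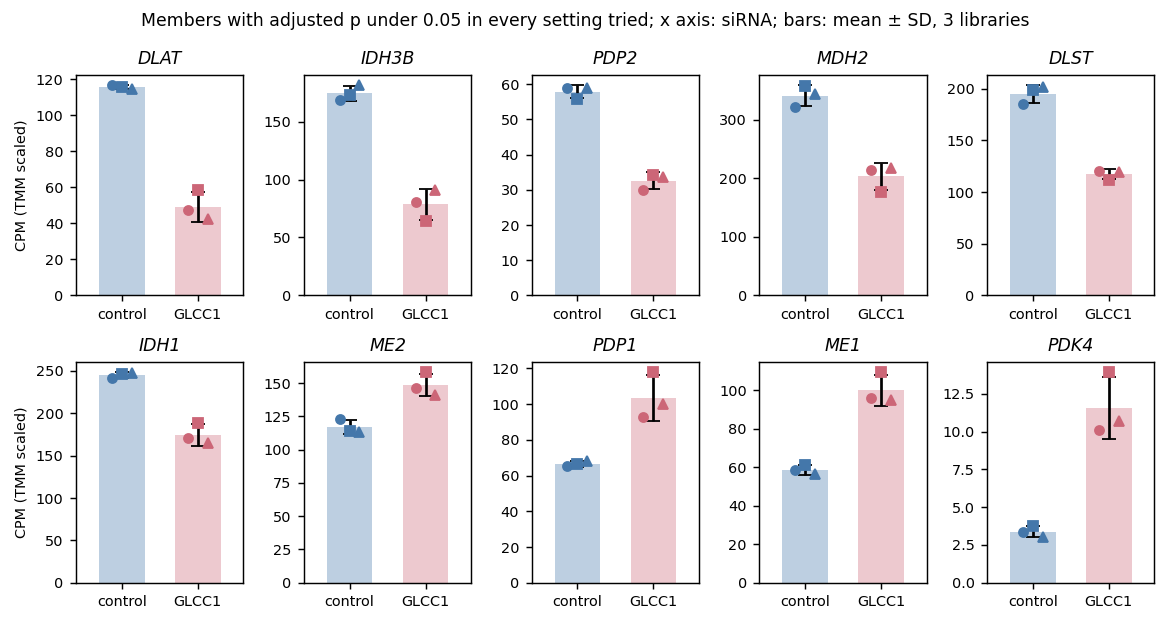
CPM scaled with TMM factors (y axis) of the 10 genes that passed in every alternative fit, in the 3 control siRNA and 3 GLCC1 siRNA libraries (circles replicate 1, squares replicate 2, triangles replicate 3). Bars are means with SD as error bars, and in each of the 10 genes all libraries of one condition lie on the same side of all libraries of the other.

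Of the 5 subunit genes of the pyruvate dehydrogenase complex, 3 fell and none rose. For comparison, 29.8% of all genes with at least 10 CPM fell and 20.1% rose. DLAT encodes the dihydrolipoamide acetyltransferase that forms the core of the complex and hands the acetyl group to coenzyme A. It lies at chr11:111896132-111935128 (hg19, plus strand). Its level was 117, 116 and 115 CPM in the control libraries and 47.2, 58.4 and 42.2 CPM with GLCC1 siRNA, so that the highest library with GLCC1 siRNA was far below the lowest control. DLAT thus fell to 0.424 times the control level, a log2 fold change of -1.24 ± 0.11 (SE, n = 3 per condition in edgeR, adjusted p = 2.47e-06), the deepest fall on the list.

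PDHX, which encodes the protein that anchors dihydrolipoamide dehydrogenase to this core, is at chr11:34937376-35042138 on the plus strand. It had 58.6, 61.4 and 66.6 CPM in the controls and 46.1, 56.9 and 44.6 CPM with GLCC1 siRNA, with the highest of these just under the lowest control. Its log2 fold change was -0.34 ± 0.11 (adjusted p = 0.026), and it did not pass in 5 of the 13 alternative fits. PDHA1, the gene of the alpha subunit that carries the phosphorylation sites of the complex (chrX:19362011-19379836, plus strand), was at 177, 179.8 and 189 CPM in the controls and at 149, 155 and 164 CPM with GLCC1 siRNA. These libraries also did not overlap, but the fall was small at -0.22 ± 0.08 (adjusted p = 0.046) and passed in 4 of the 13 alternatives. PDHB, the gene of the beta subunit, had 61.1, 57.7 and 56.6 CPM against 56.8, 55.4 and 58.0 CPM. DLD, the dehydrogenase shared with the 2-oxoglutarate complex, had 176, 174 and 174 CPM against 155, 188 and 151 CPM. The libraries of both genes overlapped, with log2 fold changes of -0.04 (95% interval -0.23 to 0.14, adjusted p = 0.73) and -0.09 (-0.29 to 0.11, adjusted p = 0.52).

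The 3′ untranslated regions (UTRs) of the 31 genes were searched on the transcript strand, in the canonical transcripts of GENCODE 44 lifted to hg19, for the 7-base words ACCTTGA and CCTTGAA, which overlap in 6 bases. ACCTTGA is complementary to the seed, bases 2 to 8, of the guide of GLCC1 siRNA 1, occurs 1 time in the GLCC1 sequence, and becomes ACCTTGAA when the base opposite guide position 1 is an A. The genotype labels read siRNA1 for all 3 GLCC1 siRNA libraries while the titles number them 1 to 3, so that the word may be that of all 3 libraries or of 1. DLAT and PDHX are the members that hold the 8-base word, and their sites are shown with those of PDK3 and ME1, which hold 7 bases of it. Capitals mark the word.
DLAT: ctgatgaaACCTTGAAgttctgaa
PDHX: ttcaataaACCTTGAAgttgatta
PDK3: tataccACCTTGAtttccatt
ME1: ctcttattACCTTGAtcctgagt
The word of DLAT is at chr11:111933612-111933619, in exon 14 of 14, and starts at base 353 of a UTR of 1869 bases. That of PDHX is at chr11:35017657-35017664, in exon 11 of 11, at base 938 of 956. PDK3 has it at chrX:24552196-24552202, and ME1, on the minus strand, at chr6:83920998-83921004. ACCTTGA was found in 5 of the 31 members (16.1%), the fifth being ACO1, and in 12.6% of 9113 genes with at least 10 CPM, and ACCTTGAA in 6.45% and 4.67%. CCTTGAA without the A before it was found again in DLAT, in ACO1 and at 2 places in PDP2, and either word in 19.4% of the members and 22.3% of the 9113 genes. The median UTR was 1098 bases in the members and 1454 bases in the 9113 genes, and these shares were not adjusted for length. Among these 9113 genes, the 1145 with ACCTTGA had a median of -0.21 in log2 fold change, and the rest one of -0.05. The medians were -0.26 with ACCTTGAA and -0.06 without it, and -0.17 with either word and -0.04 with neither. The members with ACCTTGA went both ways, as DLAT and PDHX fell, ME1 rose, and PDK3 and ACO1 did not pass. PDP2, which held only CCTTGAA, fell. A match is a run of letters, and no pairing was measured.

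Among the 4 pyruvate dehydrogenase kinases, PDK4 rose, PDK2 fell, and PDK1 and PDK3 did not pass. PDK4, a kinase known to be induced by fasting and fatty acids (chr7:95212811-95225828, minus strand), had 3.36, 3.75 and 3.01 CPM in the controls and 10.1, 13.9 and 10.7 CPM with GLCC1 siRNA. The lowest library with GLCC1 siRNA was well above the highest control. PDK4 rose 3.39-fold, a log2 fold change of 1.76 ± 0.17 (adjusted p = 4.53e-06), which was the largest rise on the list. It started from the lowest level, however, at 0.937 CPM per kb of canonical transcript in the controls and 3.21 CPM per kb after knockdown, where PDK1 had 10.2 and 10.8 CPM per kb.

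PDK1, the kinase known as a target of hypoxia-inducible factor, had 142, 151 and 136 CPM in the controls and 141, 173 and 142 CPM with GLCC1 siRNA. Its libraries overlapped (log2 fold change 0.09, 95% interval -0.12 to 0.29, adjusted p = 0.53), and its log2 fold change was -0.01 without GLCC1 siRNA replicate 2. PDK2, a broadly expressed kinase (chr17:48172101-48189516, plus strand), had 20.6, 20.3 and 17.9 CPM against 15.3, 10.0 and 15.4 CPM, with replicate 2 the lowest. It fell by 0.51 ± 0.15 on the log2 scale (adjusted p = 0.018) and passed in 10 of the 13 alternatives. PDK3, on the X chromosome, had 24.6, 26.9 and 26.1 CPM against 19.9, 23.2 and 24.7 CPM, a log2 fold change of -0.20 (95% interval -0.43 to 0.04, adjusted p = 0.19).

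The 2 phosphatases moved in opposite directions. PDP1, the calcium-stimulated phosphatase of the complex, had 65.3, 66.3 and 68.4 CPM in the controls and 92.9, 118 and 100.1 CPM with GLCC1 siRNA, and rose 1.55-fold (log2 fold change 0.63 ± 0.10, adjusted p = 0.00025). PDP2, the other catalytic phosphatase (chr16:66912492-66929657, plus strand), had 58.9, 55.7 and 59.0 CPM in the controls. With GLCC1 siRNA it had 29.8, 34.2 and 33.7 CPM, a tight group far below the controls, and it fell to 0.563 times their level (log2 fold change -0.83 ± 0.09, adjusted p = 1.82e-05). Per kb of canonical transcript, PDP1 had 15.8 CPM in the controls and PDP2 8.27 CPM, and after knockdown 24.6 and 4.66 CPM. PDPR, a regulatory subunit of the phosphatase from the list of neighbouring genes that was named after its values were seen, fell as well (log2 fold change -0.47 ± 0.10, adjusted p = 0.0035).

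Of the citrate and isocitrate genes, 3 of 7 fell and none rose. Among all genes with at least 10 CPM, 29.8% fell and 20.1% rose. IDH3B, a regulatory subunit of the NAD-dependent isocitrate dehydrogenase of the cycle (chr20:2639041-2644865, minus strand), had 169, 173 and 181 CPM in the controls and 80.9, 64.1 and 90.7 CPM with GLCC1 siRNA. It fell to 0.451 times the control level, a log2 fold change of -1.15 ± 0.11 (adjusted p = 5.43e-06), with a wide gap between the conditions. IDH3A, the catalytic subunit, stayed within its spread at 30.3, 30.0 and 28.8 CPM against 27.5, 30.0 and 28.8 CPM (log2 fold change -0.05, 95% interval -0.25 to 0.15, adjusted p = 0.74). IDH3G, the other regulatory subunit (chrX:153051221-153059967, minus strand), had 52.3, 62.1 and 52.7 CPM against 47.5, 32.5 and 47.9 CPM. It fell by 0.38 ± 0.14 (adjusted p = 0.048), but its fold change ranged from -0.47 to -0.22 as single libraries were left out and it passed in 8 of the 13 alternatives. IDH3G shares 267 exon bases with SSR4 on the other strand, and since the strand setting of the counting is not given in the sources used here, reads of the shared part cannot be assigned. The same holds for other called members with exon bases on the other strand in a second gene, namely PDHX (152 bases with APIP), DLAT (1004 with PIH1D2), PDK2 (2113 with SAMD14), PDHA1 (956 with MAP3K15) and IDH1 (94 with IDH1-AS1). SSR4 had 8606 counts over the 6 libraries against 4941 for IDH3G, the only called member whose partner had more counts. Of the other partners APIP had 2655 counts against 5472 for PDHX, and the rest had at most 386. Per kb of canonical transcript IDH3B went from 113 to 51.0 CPM, IDH3G from 41.7 to 31.9 and IDH3A from 7.28 to 7.05.

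Of the NADP-dependent isocitrate dehydrogenases, IDH1 fell and IDH2 did not pass. IDH1, the cytosolic enzyme (chr2:209100953-209130798, minus strand), had 241, 246 and 248 CPM in the controls and 170.3, 189 and 164 CPM with GLCC1 siRNA. All 3 lay below the controls, and IDH1 fell by 0.49 ± 0.08 on the log2 scale (adjusted p = 0.00039). IDH2, the mitochondrial enzyme, had 113, 122 and 118 CPM in the controls and 147, 117 and 151 CPM with GLCC1 siRNA, where replicate 2 alone lay among the controls. Its log2 fold change of 0.23 ± 0.10 did not pass with all 6 libraries (adjusted p = 0.10) and was 0.34 without that library (adjusted p = 5.7e-07). CS, the citrate synthase that opens the cycle, had 234, 230.0 and 235 CPM against 258, 241 and 237 CPM. The latter were all higher, but by less than the fit could tell apart (log2 fold change 0.08, 95% interval -0.09 to 0.24, adjusted p = 0.48). ACO1, the cytosolic aconitase that also acts as an iron-regulatory protein, overlapped at 111, 110.1 and 109.8 CPM against 101, 114 and 106 CPM (log2 fold change -0.04, adjusted p = 0.73).

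Of the 5 genes of the steps from 2-oxoglutarate to succinate, DLST fell and the other 4 did not pass. The share that passed among all genes with at least 10 CPM was 49.9%. DLST is the succinyltransferase core of the 2-oxoglutarate dehydrogenase complex and holds the place that DLAT holds in the pyruvate complex (chr14:75348594-75370446, plus strand). It had 185, 198 and 201 CPM in the controls and 121, 112 and 119.6 CPM with GLCC1 siRNA, and fell to 0.603 times the control level (log2 fold change -0.73 ± 0.08, adjusted p = 1.46e-05). OGDH, the decarboxylase of the same complex, had 102, 114 and 108 CPM against 106, 78.1 and 104 CPM, so that only replicate 2 with GLCC1 siRNA was under the controls (log2 fold change -0.17, adjusted p = 0.28). In the pyruvate and the 2-oxoglutarate dehydrogenase complex the core acyltransferase gene therefore fell. DLD, which they share, did not pass with all 6 libraries, while PDHX and PDHA1 of the pyruvate complex also fell. Other complexes of this kind were not examined.

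None of the succinyl-CoA ligase genes passed. SUCLG1, its alpha subunit, had 101, 105 and 102 CPM in the controls and 87.4, 96.3 and 93.9 CPM with GLCC1 siRNA, all lower, with a log2 fold change of -0.15 (95% interval -0.33 to 0.02, adjusted p = 0.18). SUCLG2 and SUCLA2, its GDP-forming and ADP-forming beta subunits, had log2 fold changes of -0.07 (-0.30 to 0.16) and -0.01 (-0.23 to 0.20). In both of these, replicate 2 with GLCC1 siRNA was the highest of all 6 libraries, at 74.0 and 143 CPM. SUCLG2 has a processed pseudogene, SUCLG2P2, with 1451 counts over the 6 libraries, and adding them changed no call.

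At the end of the cycle, MDH2 fell and FH and MDH1 did not pass. MDH2, the mitochondrial malate dehydrogenase (chr7:75677369-75696826, plus strand), had 322, 357 and 343 CPM in the controls and 215, 177 and 218 CPM with GLCC1 siRNA. It fell to 0.596 times the control level (log2 fold change -0.75 ± 0.09, adjusted p = 4.36e-05). MDH1, its cytosolic counterpart in the malate-aspartate shuttle, had 243, 245 and 247 CPM against 232, 231 and 228 CPM. Its libraries were tight and did not overlap, but the difference was small at -0.09 (95% interval -0.25 to 0.07, adjusted p = 0.39). FH, the fumarase, had 134, 129 and 139 CPM against 138, 126 and 138 CPM, with no difference beyond the spread (log2 fold change -0.01, 95% interval -0.18 to 0.17). Per kb of canonical transcript, MDH1 and MDH2 were at 189 and 157 CPM in the controls, the highest levels of the 31 genes, and at 178 and 93.6 CPM after knockdown.

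The enzymes that make or use pyruvate beside the cycle held 2 of the 4 genes that rose. This group had 5 members with the citrate carrier counted in, and 20.1% of all genes with at least 10 CPM rose. ME1, the cytosolic malic enzyme that yields NADPH (chr6:83920121-84140770, minus strand), had 58.3, 61.2 and 56.3 CPM in the controls and 95.9, 109 and 94.8 CPM with GLCC1 siRNA. The conditions were far apart, and ME1 rose 1.70-fold (log2 fold change 0.77 ± 0.09, adjusted p = 2.64e-05). ME2, the mitochondrial NAD-dependent malic enzyme, had 123, 114 and 113 CPM against 146, 158 and 141 CPM, and rose by 0.35 ± 0.08 (adjusted p = 0.0055). ME3, the mitochondrial NADP-dependent form, was much lower at 14.7, 14.8 and 17.0 CPM against 18.1, 15.6 and 19.6 CPM and did not pass (log2 fold change 0.21, 95% interval -0.06 to 0.47, adjusted p = 0.22).

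PC, the pyruvate carboxylase that makes oxaloacetate, had 47.0, 59.5 and 49.9 CPM in the controls and 54.0, 38.9 and 56.4 CPM with GLCC1 siRNA. SLC25A1, the carrier that exports citrate, had 69.5, 77.5 and 70.3 CPM against 83.5, 53.8 and 89.5 CPM. In both genes replicate 2 with GLCC1 siRNA was the lowest of the 6 libraries while the other 2 of its group were at or near the top. Their log2 fold changes were -0.06 (95% interval -0.35 to 0.23) and 0.07 (-0.25 to 0.39) with all libraries, and 0.08 and 0.26 without replicate 2, where SLC25A1 passed (adjusted p = 0.00034).

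Ratios of members within a library, which do not depend on how libraries are scaled, were compared for 8 pairs. With 3 libraries per condition the two-sided exact permutation test cannot give a p below 0.10. Adjustment over the 8 pairs cannot lower it, so none could pass 0.05, and the smallest adjusted p here was 0.13. In 6 pairs the libraries of the conditions did not overlap, each with the smallest p, which non-overlap gives by itself. How often pairs of other genes do so was not computed. Of single genes with at least 10 CPM, 63.9% did not overlap. The log2 ratio of IDH1 to IDH2 went from 1.05 ± 0.04 (SD, n = 3, exact p = 0.10) in the controls to 0.34 ± 0.31 with GLCC1 siRNA, a difference of -0.71. The log2 ratio of MDH1 to MDH2 went from -0.48 ± 0.07 to 0.19 ± 0.17, a difference of 0.66, and that of ME1 to ME2 from -0.99 ± 0.09 to -0.57 ± 0.04, a difference of 0.42. The cytosolic gene thus lost ground to the mitochondrial gene in the isocitrate pair and gained in the malate and malic enzyme pairs.

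The log2 ratio of PDK1 to PDP1 went from 1.10 ± 0.10 to 0.55 ± 0.05, a difference of -0.55. PDHA1 to PDHB differed by -0.18 and SUCLG2 to SUCLA2 by -0.06, both without overlap. The ratios of PC to PDHA1 (0.15, exact permutation p = 0.60) and of IDH2 to IDH3A (0.27, exact permutation p = 0.30) overlapped between the conditions.

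**Figure D3:**
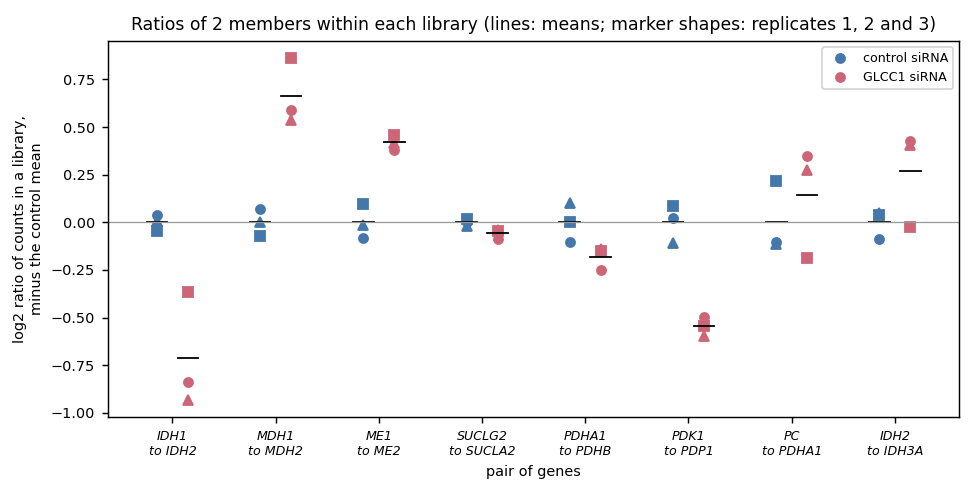
Log2 ratio of the counts of 2 genes within each library, minus the mean of the controls (y axis), for 8 pairs of genes (x axis) in control siRNA (blue) and GLCC1 siRNA (red) libraries, with lines at the means. The conditions stand apart in 6 pairs, by most in IDH1 to IDH2 and MDH1 to MDH2, and overlap in the last pairs, PC to PDHA1 and IDH2 to IDH3A.

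The promoters were searched for CACGTG, the E-box that MYC binds, which reads the same on both strands. RefSeq promoters of GRCh38.p14, from 250 bases before to 50 after a start site, matched 29 of the 31 members, and 4 of these held the word (13.8%), against 13.5% of 7716 tested genes with at least 10 CPM and 8.77% of all 27305 genes with a promoter. The sites of the members that fell, PDK2 and PDP2, are shown with that of PDHB, which did not pass. Capitals mark the word.
PDK2: cgggggaagcCACGTGccggggcgga
PDP2: cgatctcaggCACGTGactgcctggt
PDHB: accgaccaggCACGTGtgcccagcgt
They lie at chr17:50095222-50095227 and chr16:66880318-66880323 on the plus strand, at bases -129 and -197 from the start site, and at chr3:58434063-58434068 on the minus strand, at base -236. ME3, which did not pass either, holds the word upstream of both of its start sites. No site was found for DLAT, IDH3B, MDH2 and DLST, which fell farthest beside PDP2. Members without a promoter to search were not told apart from members whose promoter held no word. Binding of MYC at the words shown was not tested here. MYC itself fell from 149 ± 7.76 CPM to 106 ± 15.4 CPM (SD, 3 libraries each, log2 fold change -0.48 ± 0.10, edgeR adjusted p = 0.0030).

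Genes next to these pathways were taken from lists of 75 genes, of which 72 were found and 70 tested. As reported 14 rose and 19 fell, and with library totals only 21 rose and 14 fell. The neighbours that passed as reported are 47.1% of the 70, against 31.6% of all genes and 49.9% of those with at least 10 CPM. In the step before the complex, 4 of 5 genes fell. LDHA, which reduces pyruvate to lactate, had 2931, 2924 and 2972 CPM in the controls and 782, 872 and 895 CPM with GLCC1 siRNA, a fall of far more than any member's (log2 fold change -1.79 ± 0.08, adjusted p = 1.14e-08). LDHB fell by 0.30 ± 0.07 (adjusted p = 0.0057) and MPC1, a subunit of the mitochondrial pyruvate carrier, by 0.39 ± 0.11 (adjusted p = 0.014), while MPC2, the other subunit, had a log2 fold change of 0.22 (adjusted p = 0.15). With library totals LDHB (-0.18, adjusted p = 0.080) and MPC1 (-0.27, adjusted p = 0.074) no longer passed.

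**Figure D4:**
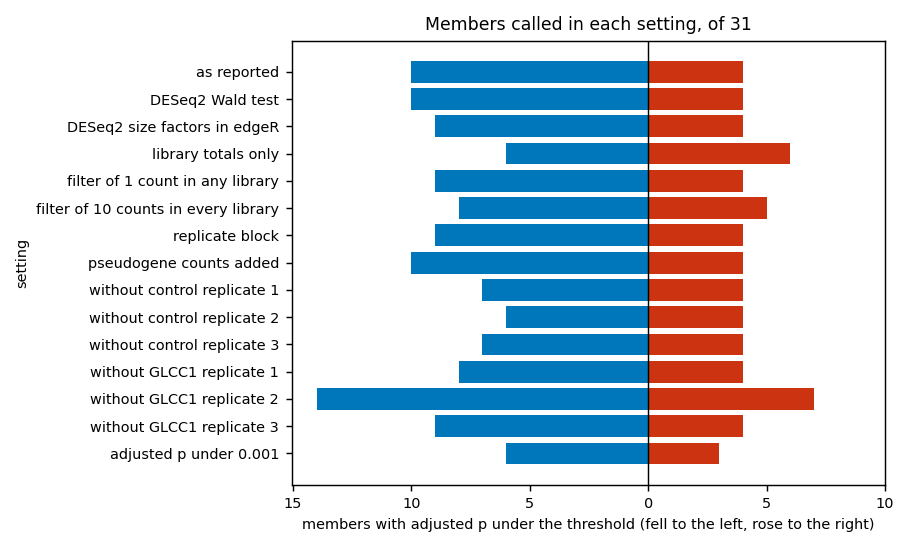
Number of the 31 genes (x axis) that fell (blue, to the left) or rose (red, to the right) under each way of processing the counts (y axis). The counts are 10 and 4 as reported, 6 and 6 with library totals only, and 14 and 7 without GLCC1 siRNA replicate 2.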

How the data were processed

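RNA of 3 control siRNA and 3 GLCC1 siRNA libraries of a colorectal cancer cell line was analysed. The values are the raw counts that the authors deposited for each gene symbol, made from paired-end reads mapped to hg19 with TopHat 2.0.11 and counted with HTSeq in union mode. Pairs placed on no gene or on several genes were kept out of library sizes. The 31 genes, the neighbouring lists and the tests were chosen with earlier results of these data known.

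A gene was tested where at least 1 condition held 5 or more counts in total. TMM factors (0.950 to 1.05) scaled the libraries, and edgeR 4.0.16 (R 4.3.3) was used with the robust quasi-likelihood fit and Benjamini-Hochberg adjustment over 23074 genes. No 2 libraries of a condition agreed within counting noise, since their chi-square was 1.93 to 19.0 times its degrees of freedom. Intervals of fold changes are from this fit and cover the spread between libraries. In counts simulated for this comparison over 22223 genes, 198 of 200 changed genes were recovered and 8 of 206 called were unchanged. In the data 7293 of 23074 genes passed, far more than were changed in the simulation, so these rates may not carry over. For ratios, 0.5 was added to each count. All 31 genes are named. Of the neighbours, LDHA, LDHB, MPC1, MPC2 and MYC are named, with the 8 of largest fold change (LDHA among them) that passed, did not overlap between conditions and reached 10 CPM on average. PDPR was added after its values were seen. Positions and UTRs are from GENCODE 44 on hg19, and promoters from RefSeq on GRCh38.p14. Alternatives were DESeq2 1.42.0, its size factors in edgeR, library totals only, filters of 1 count in any library and of 10 counts in every library, a replicate block, pseudogene counts added, 5 counts added in ratios, an adjusted p under 0.001, the grouping by library names, and fits that leave out 1 library each.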

Additional observations from a re-analysis of the deposited data

Results flagged for a closer look

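The share of uniquely placed read pairs outside all annotated genes, which no comparison above uses, was 12.7%, 14.2% and 12.5% in GLCC1 siRNA replicates 1, 2 and 3, above the range of 11.2% to 11.5% in the control libraries. Replicate 2, with the highest share and the lowest total, is also the library that lay apart from the rest of its group in the pyruvate dehydrogenase and TCA cycle genes. The part of this share in the results was not tested.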

How the results depend on the processing

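The 4 members that rose and 10 that fell became 6 fallen with library totals only, 6 fallen at an adjusted p under 0.001, and between 4 and 7 risen and 6 and 14 fallen as each library was left out. The lowest count of falls came without control replicate 2 and the highest without GLCC1 siRNA replicate 2. Among all genes tested, 5248 and 9920 passed in these fits, against 7293 as reported. Neighbouring genes that rose numbered between 6 and 15 and those that fell between 14 and 31 with a library left out, against 14 and 19. The median log2 fold change of the members was 0.052 with library totals, -0.031 with 10 counts in every library, between -0.088 and -0.040 with a library left out, and 0.070 under the library names, where every sign turns. With library totals, 9 members that had not passed turned sign, namely PDHB (0.078), DLD (0.037), ACO1 (0.080), IDH3A (0.074), SUCLG2 (0.052), SUCLA2 (0.11), FH (0.12), MDH1 (0.034) and PC (0.058). SUCLA2 and FH also turned with DESeq2 (0.0011 and 0.0066), its size factors (0.00091 and 0.0063) and 10 counts in every library (0.027 and 0.033). With a library left out, members that had not passed crossed zero in PDK1 (-0.012 to 0.14), ACO1 (-0.087 to 0.0036), SUCLG2 (-0.19 to 0.016), SUCLA2 (-0.13 to 0.060), FH (-0.033 to 0.041), PC (-0.16 to 0.081) and SLC25A1 (-0.068 to 0.26). No called member and no ratio turned sign in these alternatives other than the library names. The cause of these changes was not tested.

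The replicate numbers of the titles are shared between the conditions, but same-numbered libraries did not deviate together (correlations -0.18, -0.32 and -0.01 over 14875 genes). With 3 libraries per condition and GLCC1 siRNA replicate 2 apart from its group, these correlations cannot tell whether same-numbered libraries shared a culture or batch. With the number as a replicate block, 4 members rose and 9 fell, PDHA1 no longer passing (adjusted p = 0.12), and 8 neighbouring genes rose and 17 fell. For the 8 ratios the mean difference within pairs (-0.71, 0.66, 0.42, -0.06, -0.18, -0.55, 0.15 and 0.27) equals the unpaired one by construction, and the exact sign-flip p was 0.25, the smallest it can be with 3 pairs, for the first 6, and 0.75 and 0.50 for the last. With 3 libraries per condition and down to 11948790 counts, differences whose interval includes 0 could not be told from none.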

Other observations

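As a background to the short lists below, 31.6% of all genes tested and 49.9% of those with at least 10 CPM passed. Of 12 genes that bring glutamine and other carbon into the cycle, 5 rose and 3 fell. GLUD1, the glutamate dehydrogenase that makes 2-oxoglutarate, had 159, 160.3 and 165 CPM in the control libraries and 78.6, 76.0 and 81.4 CPM with GLCC1 siRNA, a log2 fold change of -1.04 ± 0.08 (SE, edgeR adjusted p = 6.35e-07). GLUD2 fell by about as much (-0.99 ± 0.10), but it is a near-identical copy of GLUD1, and reads of the copies may have been shared between them. PCK2, the mitochondrial phosphoenolpyruvate carboxykinase, rose from 79.2, 86.3 and 80.4 CPM to 128, 117 and 148 CPM (0.68 ± 0.10, adjusted p = 0.00014). ASNS, the asparagine synthetase, rose from 123, 132 and 137 CPM to 182, 222 and 216 CPM (0.66 ± 0.09, adjusted p = 0.00011).

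Among 9 carriers and shuttle enzymes 2 rose and 3 fell, and SLC25A26, the mitochondrial carrier of S-adenosylmethionine, fell the most at -0.88 ± 0.12 (adjusted p = 5.9e-05). Of the 8 genes tested for cofactors of the dehydrogenases, 2 rose and 4 fell. Of the 8 that use citrate or acetyl-CoA, 2 rose and 4 fell, among them ACAT1, the mitochondrial acetyl-CoA acetyltransferase, at -0.54 ± 0.09 (adjusted p = 0.00033). None of the 6 genes tested for 2-hydroxyglutarate and related reactions passed in edgeR. Of 15 regulators of mitochondrial and hypoxia genes, 2 rose and 1, MYC, fell. VHL, which marks hypoxia-inducible factor for degradation, rose the most, from 92.3 CPM to 168 CPM on average (0.86 ± 0.09).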
